A study of Mus musculus with 35 samples.

Results

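Cells that take up lipoproteins store the cholesterol as ester and release it again, and 8 genes of that cycle were followed here in mouse aorta: Soat1, Nceh1, Lipa, Npc1, Npc2, Plin2, Lpl and Fabp5. They were taken from the deposited expression table by symbol, and all 8 were found among its 14174 genes. All 8 also passed the filter on low values that left 14157 genes for testing. SOAT1 joins free cholesterol to a fatty acid in the endoplasmic reticulum, and the ester is kept in lipid droplets coated by perilipin 2, the product of Plin2. Ester that arrives inside lipoproteins is split in the lysosome by the acid lipase LIPA, and the freed sterol is passed by NPC2 to the membrane protein NPC1, which exports it. NCEH1 splits stored ester outside the lysosome, lipoprotein lipase (Lpl) releases fatty acids from lipoprotein triglyceride, and FABP5 carries fatty acids within the cell. A macrophage filled with such droplets is the foam cell of the atherosclerotic plaque.

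RNA-seq libraries of 35 aorta samples came from 12 groups of C57BL/6 mice: 3 genotypes, 2 diets and 2 durations, with 3 libraries in 11 groups and 2 in EKO/hA-I on chow for 6 weeks. The genotypes were EKO/hA-I, which lacks apolipoprotein E and carries a transgene for human apoA-I, the chief protein of HDL particles; EKO, which lacks apolipoprotein E; and wild type (WT). The lack of apoE is thus shared by EKO/hA-I and EKO. Mice received Western diet (WD) or chow for 22 or 6 weeks from the age of 8 weeks, so that they were 30 or 14 weeks old at the end. The labels name neither the promoter of the transgene nor the line that carried it, the sex of the mice is not given, and a whole aorta, here freed of the fat around it, mixes all cell types of its wall.

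The values are the authors' normalised read numbers, which sum to 907492 to 1137737 in a library and come from an inferred 6850000 to 25330000 reads. Apoe itself ran from 5.37 to 29.7 in the 23 apoE-deficient libraries, against 416 to 1276 in the 12 WT libraries, with no overlap. The tag of WT WD 22 weeks replicate 3 names EKO and its title WT; its Apoe of 540.4 lay within the WT range, and it was kept as WT. Marker genes of aortic smooth muscle summed to 3979.7 to 40180.5 and those of endothelium to 799.1 to 2810.8, so both were present in every library. Markers of surrounding tissue were present too: the highest sums were 14726.0 for brown adipocytes, 6788.1 for white adipocytes, 3785.3 for skeletal muscle, 5700.0 for heart muscle and 1796.3 for sympathetic neurons. Y-linked transcripts were near 0 in 12 libraries: of the groups on chow for 22 weeks, 0 in EKO/hA-I and 2 in EKO, and 1 in each of the other 10 groups.

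The order of the 12 groups was the same at its top for 6 of the 8 genes. Soat1, Nceh1, Lipa, Npc1, Npc2 and Fabp5 were highest in EKO on WD for 22 weeks, and in none of them did that group's libraries overlap the group next in order. Plin2 and Lpl had another order: both were highest in WT on WD for 6 weeks and lowest in EKO/hA-I on chow for 22 weeks. How many of all genes put EKO on WD for 22 weeks on top without overlap was not counted. For that group against WT on WD at 22 weeks alone, ranges were apart for 40.5% of all genes. Soat1 averaged 124.4 ± 29.2 in that EKO group after 22 weeks of WD, against 30.2 ± 11.7 after 6 weeks (SD, n = 3 each), the group next in order. From there down to WT on WD for 6 weeks, the lowest at 11.8 ± 1.43 (SD, n = 3), the ranges of all neighbours overlapped except those of EKO/hA-I on chow for 22 and for 6 weeks. The genes also differed in how much libraries of 1 group varied: the median coefficient of variation over the 11 groups of 3 was 12.3% for Npc1 and 42.2% for Lpl.

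**Figure D1:**
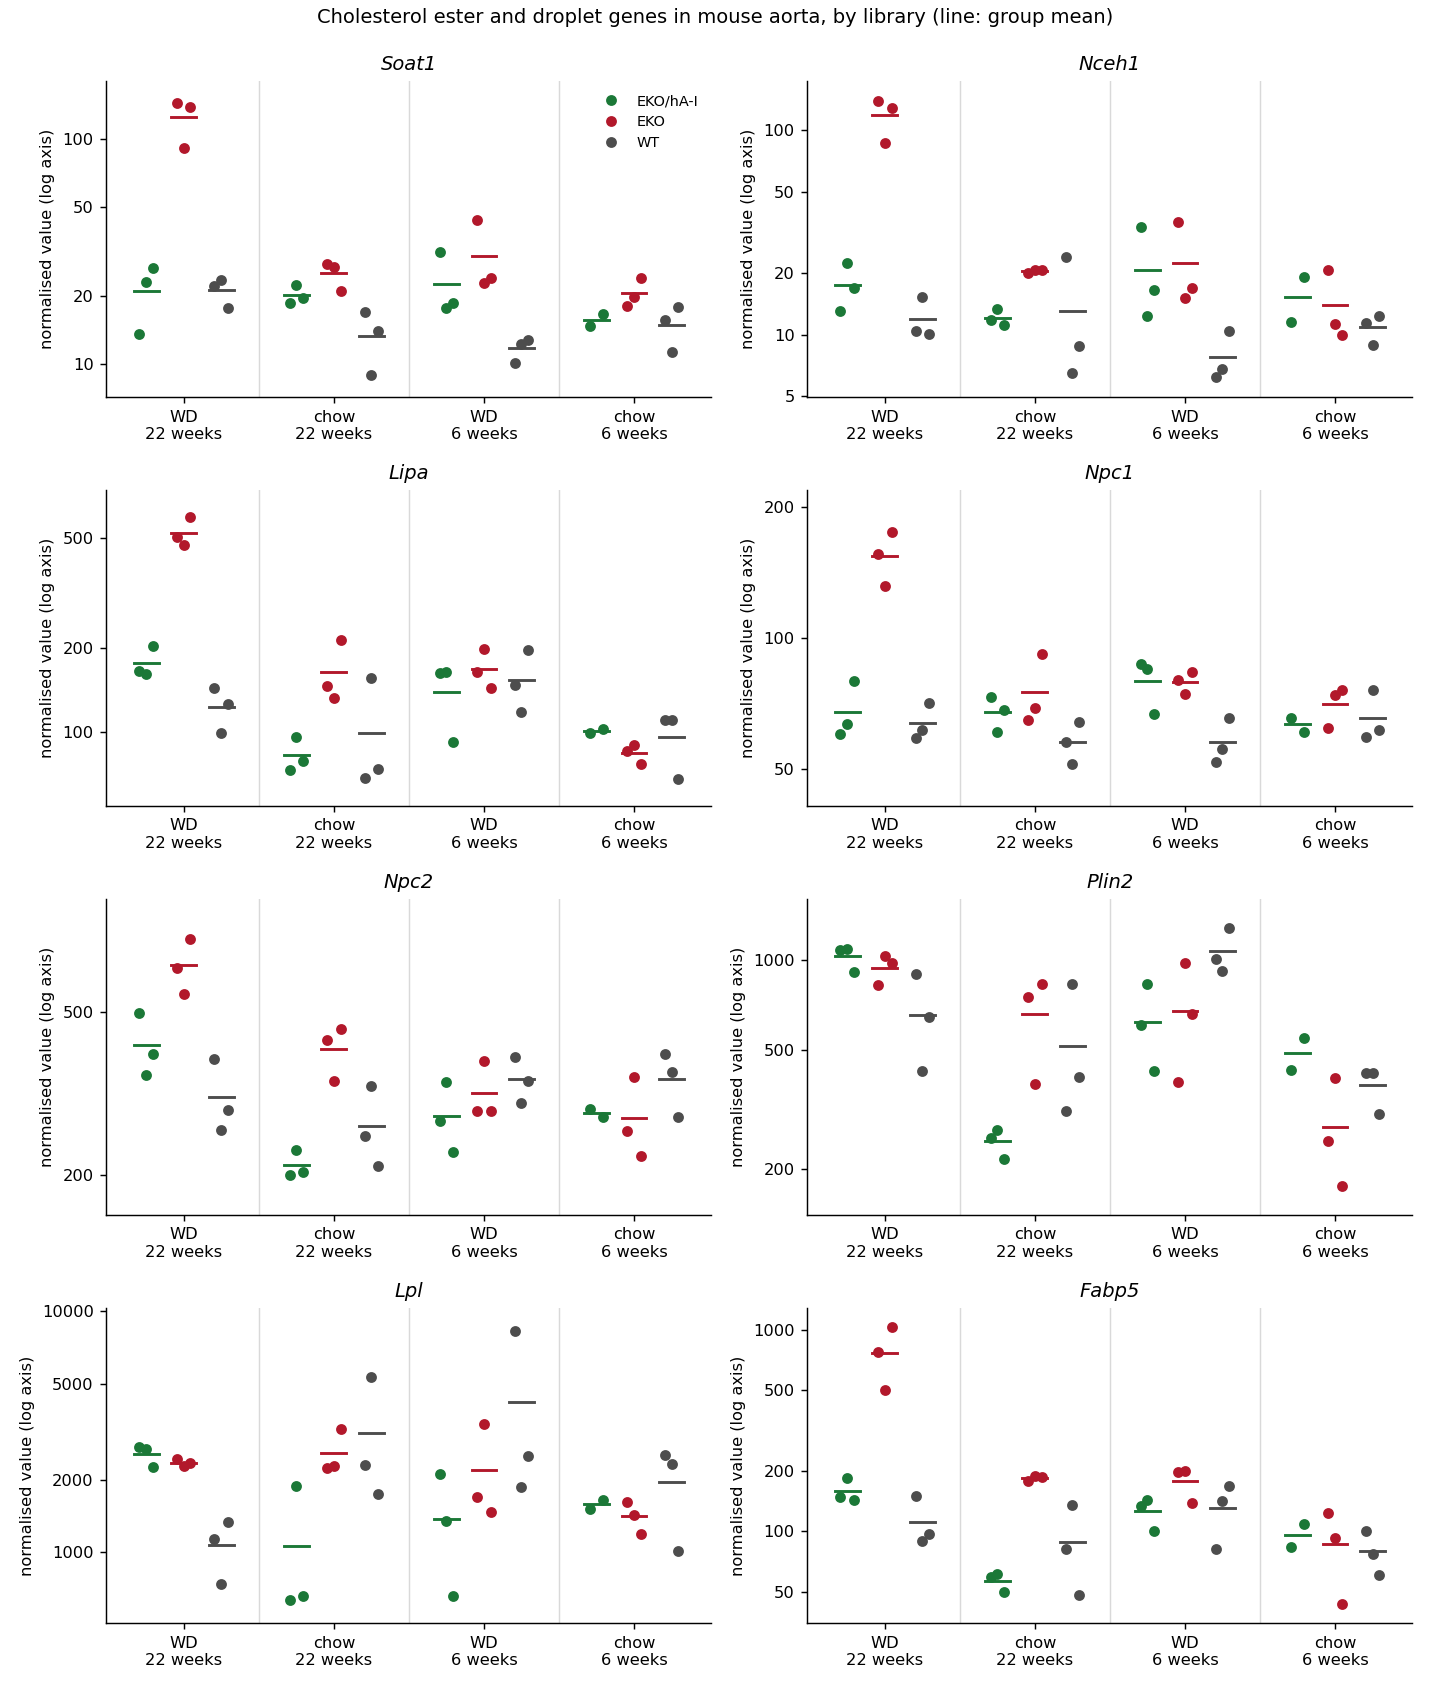
Normalised value (log axis) of each gene in every library, by diet and weeks on diet along the horizontal axis and genotype by colour; a point is 1 library and a line the group mean. The 3 EKO libraries on WD at 22 weeks stand above every other library for Soat1, Nceh1, Lipa, Npc1, Npc2 and Fabp5, and lie among the others for Plin2 and Lpl.

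The first comparison asks what loss of apoE does on WD at 22 weeks. The EKO aortas held more transcript of the enzyme that forms cholesterol ester and of both enzymes that split it. Soat1 was 143.8, 90.8 and 138.7 in the EKO libraries, against 22.3, 23.7 and 17.7 in the WT libraries. Nceh1 was 139.5, 87.1 and 129.1 in the EKO libraries, against 10.5, 15.4 and 10.1 in the WT libraries. Lipa was 500.3, 469.2 and 593.7 in the EKO libraries, against 143.6, 98.7 and 126.3 in the WT libraries. For all 3 genes the lowest EKO library lay far above the highest WT library. On the log2(value + 1) scale, which understates the change of low genes, Soat1 rose by 2.48 ± 0.26 (SE; adjusted p = 5.51e-08, limma), Nceh1 by 3.20 ± 0.38 (adjusted p = 3.13e-07) and Lipa by 2.08 ± 0.27 (adjusted p = 1.23e-06). As fitted folds these are 5.56, 9.17 and 4.24.

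The pair of proteins that hands sterol out of the lysosome moved less. Npc1 was 156.5, 131.7 and 175.7 in the EKO libraries, against 58.8, 61.5 and 70.8 in the WT libraries, a rise of 1.26 ± 0.15 (SE; adjusted p = 2.07e-07, limma). Npc2 was 640.8, 552.9 and 754.4 in the EKO libraries, against 383.1, 258.5 and 289.3 in the WT libraries, a rise of 1.07 ± 0.20 (adjusted p = 0.000256). Fabp5, the fatty acid carrier, was 776.1, 501.3 and 1029 in the EKO libraries, against 148.9, 89.1 and 96.9 in the WT libraries, a rise of 2.75 ± 0.34 (adjusted p = 7.56e-07). In these 3 genes too the groups did not overlap. EKO replicate 2 was the lowest of its group for all 6 genes, and also for the summed macrophage markers.

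The droplet coat and the lipase did not pass the test in the fit of all groups. Plin2 was 825.4, 1031 and 980.8 in the EKO libraries, against 902.5, 425.7 and 647.3 in the WT libraries, so that WT replicate 1 lay within the EKO range. The fitted difference was 0.58 (95% interval -0.17 to 1.33, adjusted p = 0.285, limma). Lpl was 2444, 2277 and 2342 in the EKO libraries, against 1135, 735.6 and 1340 in the WT libraries. Its groups did not overlap, yet the fitted difference of 1.18 (95% interval 0.13 to 2.23) had an adjusted p of 0.101, since Lpl varied widely within other groups. In a fit of these 6 libraries alone Lpl passed, at an adjusted p of 0.0165. With terms for brown fat and skeletal muscle markers in the fit both genes passed, Plin2 at 0.78 (adjusted p = 0.0206) and Lpl at 1.40 (adjusted p = 0.00614).

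Of the 8 genes 6 were called higher and 0 lower in EKO against WT, where 14.8% of all genes tested were called higher and 22% in either direction. Ranges of the groups were apart for 7 of the 8, against 40.5% of all genes. The median log2 difference was 1.67 over the 8 and -0.01 over all genes. Macrophage markers moved with these genes: 11 of 12 were called higher, and their sum was 6946.6 to 10065.8 in EKO, against 432.6 to 832.2 in WT, with no marker at 0. More macrophages and more transcript per cell cannot be told apart in whole tissue, and the markers' part in the result was not tested. Markers of aortic smooth muscle fell for 4 of 8 in the same comparison, with a sum of 6135.1 to 10697.0 in EKO, against 16771.0 to 27473.5 in WT.

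RefSeq promoter windows (build GRCm38.p6) were matched for 5 of the 8 genes, each of 250 bases before to 50 after the start of the gene. Those of Soat1 (chr1:156474279-156474578, minus strand), Nceh1 (chr3:27182754-27183053, plus strand) and Lipa (chr19:34527425-34527724, minus strand) are shown because these 3 genes rose together in EKO, and that of Plin2 (chr4:86670010-86670309, minus strand) because it was not called. Each is read 5′ to 3′ along its gene, and capitals mark the matches to the motifs named after the sequences.
Soat1: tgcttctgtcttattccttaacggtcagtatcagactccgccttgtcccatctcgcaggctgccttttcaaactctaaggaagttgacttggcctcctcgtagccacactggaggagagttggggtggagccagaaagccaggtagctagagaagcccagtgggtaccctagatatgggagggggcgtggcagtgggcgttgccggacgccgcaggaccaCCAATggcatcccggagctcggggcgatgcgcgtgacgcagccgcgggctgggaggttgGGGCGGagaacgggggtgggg
Nceh1: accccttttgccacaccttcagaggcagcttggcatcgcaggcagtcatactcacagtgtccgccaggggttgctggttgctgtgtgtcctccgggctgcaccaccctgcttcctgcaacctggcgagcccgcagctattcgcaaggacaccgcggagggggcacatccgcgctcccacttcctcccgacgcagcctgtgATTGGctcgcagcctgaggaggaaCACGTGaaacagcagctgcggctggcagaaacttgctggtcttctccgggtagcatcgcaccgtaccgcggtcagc
Lipa: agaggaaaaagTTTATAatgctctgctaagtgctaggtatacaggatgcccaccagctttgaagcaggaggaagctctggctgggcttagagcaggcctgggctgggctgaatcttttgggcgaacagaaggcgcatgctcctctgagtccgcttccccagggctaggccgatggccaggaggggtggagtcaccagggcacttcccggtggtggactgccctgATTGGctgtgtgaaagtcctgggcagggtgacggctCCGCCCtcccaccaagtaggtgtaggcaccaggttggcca
Plin2: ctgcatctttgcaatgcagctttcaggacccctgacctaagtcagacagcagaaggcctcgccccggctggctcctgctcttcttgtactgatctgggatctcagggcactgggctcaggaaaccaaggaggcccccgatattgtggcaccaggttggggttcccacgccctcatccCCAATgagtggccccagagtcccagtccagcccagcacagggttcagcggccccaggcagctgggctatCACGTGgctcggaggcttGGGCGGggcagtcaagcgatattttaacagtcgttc
Both strands were searched for the promoter element CCAAT, the GC box GGGCGG, the E-box CACGTG, the TATA motif TATAAA and a sterol response element, TCACNCCAC, and no matches overlapped. CCAAT occurred in the promoters of all 5 genes, at 30 bases before the start in Soat1, 50 in Nceh1, 26 in Lipa and 73 in Plin2, and at 75 and 6 in Npc2 (not shown); 37.4% of the 32851 promoters in the table hold it. The E-box lay 26 bases before the start of Nceh1 and 4 before that of Plin2 and was in none of the other 3, against 7.15% of all promoters. GGGCGG was in Soat1, Lipa, Plin2 and Npc2 but not in Nceh1, against 35.7% of all promoters, and TATAAA on the opposite strand of Lipa alone, 239 bases before its start, against 13.6%. TCACNCCAC, held by 1.24% of all promoters, had no match in these 5 windows. The 4 promoters shown thus share CCAAT whether or not their gene was called.

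The next comparison asks what human apoA-I does in mice without apoE on WD at 22 weeks. With apoA-I the same 6 genes were lower, and Plin2 and Lpl again were not called. These values share the EKO libraries with the comparison to WT, so the pair of comparisons is not independent. Soat1 was 13.6, 23.2 and 26.7 in the EKO/hA-I libraries, against 143.8, 90.8 and 138.7 in the EKO libraries, and fell by 2.52 ± 0.26 on the log2 scale (SE; adjusted p = 1.67e-07, limma). Nceh1 was 13.1, 22.5 and 16.9 in the EKO/hA-I libraries, against 139.5, 87.1 and 129.1 in the EKO libraries, and fell by 2.69 ± 0.38 (adjusted p = 8.79e-06). The 2 groups were several-fold apart for both genes, with no overlap.

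Lipa was 165.8, 161.5 and 204.4 in the EKO/hA-I libraries, against 500.3, 469.2 and 593.7 in the EKO libraries, and fell by 1.55 ± 0.27 (SE; adjusted p = 0.000139, limma). Npc1 was 60.1, 63.3 and 79.5 in the EKO/hA-I libraries, against 156.5, 131.7 and 175.7 in the EKO libraries, and fell by 1.18 ± 0.15 (adjusted p = 1.35e-06). Fabp5 was 147.5, 184.1 and 143.7 in the EKO/hA-I libraries, against 776.1, 501.3 and 1029 in the EKO libraries, and fell by 2.22 ± 0.34 (adjusted p = 3.36e-05). Every EKO/hA-I library was below every EKO library in these genes; ranges were apart for 6 of the 8, against 40.6% of all genes. Npc2, the soluble carrier, showed the smallest of the 6 changes. It was 496.9, 351.2 and 394.9 in the EKO/hA-I libraries, against 640.8, 552.9 and 754.4 in the EKO libraries, and fell by 0.65 ± 0.20 (adjusted p = 0.0263). That call was lost without any of 4 single libraries (EKO replicates 1 and 3, EKO/hA-I replicates 2 and 3, adjusted p up to 0.117) and in a fit of the 6 libraries alone (adjusted p = 0.0762).

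Plin2 was 1088, 1091 and 914.7 in the EKO/hA-I libraries, against 825.4, 1031 and 980.8 in the EKO libraries (difference 0.13, 95% interval -0.62 to 0.88). Lpl was 2723, 2687 and 2263 in the EKO/hA-I libraries, against 2444, 2277 and 2342 in the EKO libraries (difference 0.11, 95% interval -0.93 to 1.16). The groups overlapped for both genes, and the intervals still hold changes of nearly 1 on the log2 scale. Of the 8 genes 6 were called lower and 0 higher, where 12.9% of all genes were called lower and 18.8% in either direction; the median difference was -1.36 over the 8 and -0.02 over all genes. Macrophage markers were lower for 11 of 12, with a sum of 1064.1 to 2410.2 in EKO/hA-I, against 6946.6 to 10065.8 in EKO. Skeletal muscle markers were higher for 6 of 8 (906.2 to 2959.7 in EKO/hA-I, against 24.2 to 125.2 in EKO) and brown adipocyte markers for 3 of 8 (6229.3 to 7776.3 in EKO/hA-I, against 1356.7 to 5281.8 in EKO). With terms for brown fat and skeletal muscle in the fit all 6 calls held; the part of the macrophage markers was not tested.

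Set directly against WT on WD at 22 weeks, EKO/hA-I gave 0 calls among the 8 genes with limma, where 18% of all genes were called, and 2 of the 8 (Npc2 and Lpl) had an unadjusted p under 0.05. Ranges were apart for 3 of the 8 (Plin2, Lipa and Lpl), against 44.4% of all genes. Soat1 averaged 21.1 ± 6.76 in EKO/hA-I and 21.2 ± 3.12 in WT (SD, n = 3 each), a difference of -0.05 with a 95% interval of -0.59 to 0.49. Nceh1 averaged 17.5 ± 4.71 in EKO/hA-I and 11.99 ± 2.95 in WT, and its interval of -0.27 to 1.28 leaves room for a rise of more than 1 on the log2 scale. Lpl averaged 2558 ± 256 in EKO/hA-I and 1070 ± 307 in WT, with no overlap, a difference of 1.29 ± 0.51 (SE; adjusted p = 0.0754, limma) that passed at 0.0269 in a fit of these 6 libraries alone. Macrophage markers were higher for 9 of 12 in this comparison (1064.1 to 2410.2 in EKO/hA-I, against 432.6 to 832.2 in WT). Smooth muscle markers were lower for 8 of 8 (3979.7 to 10257.7 in EKO/hA-I, against 16771.0 to 27473.5 in WT). Brown adipocyte markers were higher for 2 of 8 (6229.3 to 7776.3 in EKO/hA-I, against 3040.5 to 5368.2 in WT). Skeletal muscle markers were higher for 1 of 8 (906.2 to 2959.7 in EKO/hA-I, against 27.3 to 459.2 in WT). Neither sum overlapped between the groups.

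**Figure D2:**
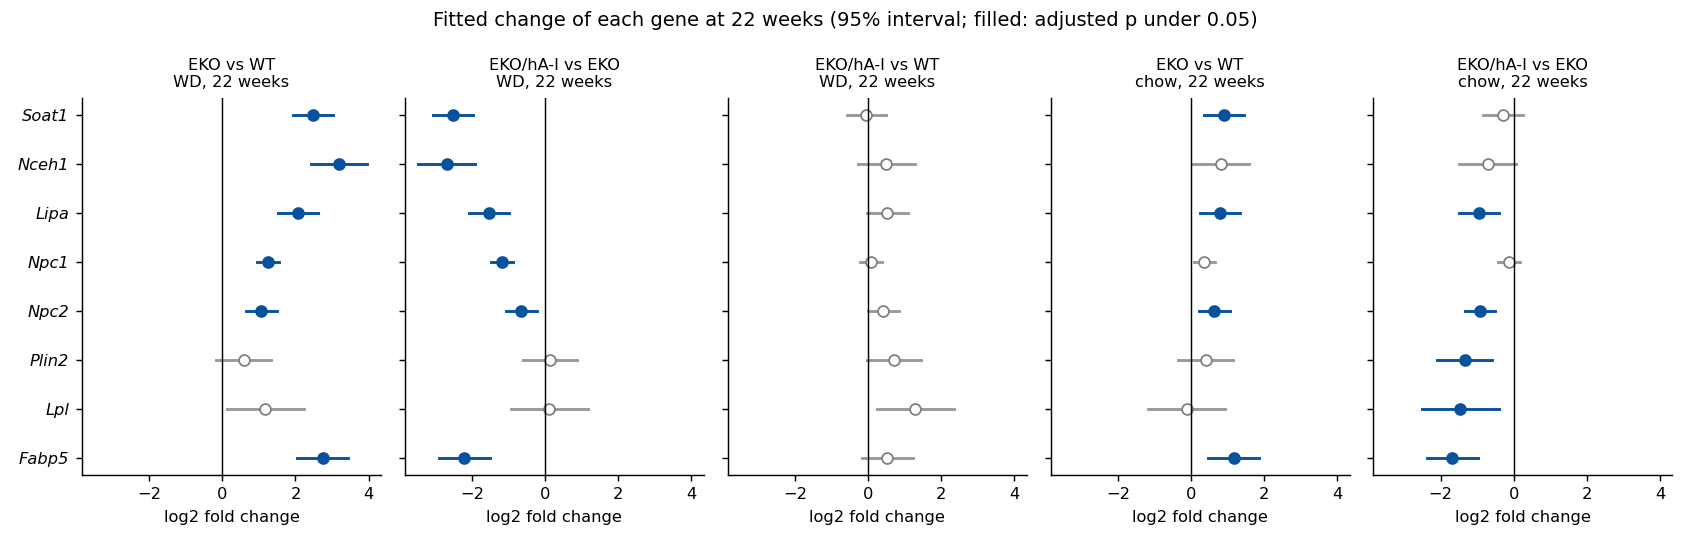
Fitted log2 fold change of each gene (point) with its 95% interval (line) in 5 comparisons at 22 weeks, the first-named group over the second; filled points had an adjusted p under 0.05. On WD, 6 genes are filled to the right in EKO against WT and to the left in EKO/hA-I against EKO, and 0 are filled in EKO/hA-I against WT; on chow, Plin2 and Lpl are filled to the left in EKO/hA-I against EKO.

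Diet and time within EKO gave calls for the same 6 genes. On WD against chow at 22 weeks 6 genes were higher and 0 lower, where 13.9% of all genes were higher and 18.7% were called. Soat1 averaged 124.4 ± 29.2 on WD and 25.3 ± 3.58 on chow, Nceh1 118.6 ± 27.8 on WD and 20.5 ± 0.469 on chow, and Fabp5 768.7 ± 264 on WD and 183.4 ± 5.10 on chow (SD, n = 3 each). Their log2 differences were 2.24 ± 0.26, 2.45 ± 0.38 and 2.00 ± 0.34 (SE). Lipa rose by 1.69 ± 0.27, Npc1 by 1.04 ± 0.15 and Npc2 by 0.67 ± 0.20 (adjusted p at most 0.0213, limma). The Npc2 call was lost without any of 3 libraries (EKO chow replicate 2, EKO WD replicates 1 and 3, adjusted p up to 0.101). Plin2 differed by 0.59 (95% interval -0.16 to 1.34) and Lpl by -0.11 (95% interval -1.16 to 0.93). With the fat and muscle terms Plin2 was called higher, at 1.13 (adjusted p = 0.00390). Macrophage markers were higher for 11 of 12 here as well, with a sum of 6946.6 to 10065.8 on WD, against 1345.0 to 2211.8 on chow. White adipocyte markers were lower for 3 of 6 (1861.7 to 2430.9 on WD, against 4016.3 to 6788.1 on chow).

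Between 22 and 6 weeks of WD in EKO the 6 genes were again higher and 0 lower, against 10.5% of all genes higher and 13.4% called. Nceh1 was 139.5, 87.1 and 129.1 at 22 weeks, against 35.5, 15.2 and 17.0 at 6 weeks, a rise of 2.41 ± 0.38 (SE; adjusted p = 4.10e-05, limma). Soat1 was 143.8, 90.8 and 138.7 at 22 weeks, against 43.7, 22.9 and 24.2 at 6 weeks, a rise of 2.04 ± 0.26 (adjusted p = 3.58e-06). Replicate 1 at 6 weeks was the highest of its group for both genes and for the macrophage markers, whose sum was 1615.3 there, against 1058.4 and 1056.0 in the other 6-week libraries. Lipa rose by 1.63, Fabp5 by 2.07, Npc2 by 1.03 and Npc1 by 0.95 over the same interval, while Plin2 (0.57) and Lpl (0.21) were not called. With the fat and muscle terms Plin2 was called, at 1.03 (adjusted p = 0.00584). Macrophage markers were higher for 11 of 12 (6946.6 to 10065.8 at 22 weeks, against 1056.0 to 1615.3 at 6 weeks), and smooth muscle markers were lower for 5 of 8. In EKO/hA-I on WD, 22 against 6 weeks gave 0 calls among the 8 with limma, where 0.0706% of all genes were called, and 2 of the 8 (Plin2 and Npc2) had an unadjusted p under 0.05.

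Tests of the difference between differences were run for 4 pairs of contrasts. The change with apoA-I on WD was larger at 22 than at 6 weeks for 4 genes, all lower (4.51% of all genes were lower, 5.12% called): Soat1 by -2.13 ± 0.37, Nceh1 by -2.57 ± 0.53, Fabp5 by -1.73 ± 0.48 and Npc1 by -1.18 ± 0.21 (SE). The Fabp5 call was lost without any of 8 libraries (EKO replicates 2 and 3 at 6 weeks and 1 and 3 at 22 weeks, EKO/hA-I replicates 1 and 2 at 6 weeks and 1 and 3 at 22 weeks, adjusted p up to 0.110), and Nceh1 had an adjusted p of 0.0598 with the fat and muscle terms. Lipa, at -1.24 ± 0.38, missed the threshold at an adjusted p of 0.0554 but passed with the fat and muscle terms (-1.91, adjusted p = 0.00403), with a pseudocount of 5 (0.0430) and without EKO/hA-I replicate 3 at 22 weeks (0.0488) or at 6 weeks (0.0169). Npc2 passed with the fat and muscle terms as well (-0.95, adjusted p = 0.0484), against -0.46 without them. The excess of EKO over WT at 22 weeks was larger on WD than on chow for 5 genes (4.99% of all genes in that direction, 6.21% called), from 0.90 for Npc1 to 2.38 for Nceh1, with Npc2 (0.43), Plin2 (0.18) and Lpl (1.30) not called. Of these 5, the Lipa call was lost without any of 7 libraries (EKO WD replicates 1 and 3, EKO chow 1 and 2, WT WD 2 and 3 and WT chow 2, adjusted p up to 0.105). The Fabp5 call was lost without any of those 7, EKO chow replicate 3 or WT chow replicate 1 (adjusted p up to 0.138). With the compared groups alone Lipa (0.154), Npc1 (0.0698) and Fabp5 (0.142) were lost, and Fabp5 also with a replicate block (0.0582), a pseudocount of 0.1 (0.0568) and rescaling (0.0518).

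The excess of EKO over WT on WD grew between 6 and 22 weeks for 6 genes (5.87% of all genes in that direction, 8.64% called), by 2.26 ± 0.48 for Fabp5, 1.93 ± 0.38 for Lipa, 1.85 ± 0.53 for Nceh1, 1.24 ± 0.37 for Soat1, 1.18 ± 0.29 for Npc2 and 0.80 ± 0.21 for Npc1 (SE). Lpl (1.91, adjusted p = 0.1, limma) and Plin2 (1.33, 0.111) were not called, though both had an unadjusted p under 0.05. Without WT replicate 2 at 6 weeks Lpl passed (0.0461), and without EKO replicate 2 at 6 weeks Plin2 did (0.0475). The Nceh1 call was lost without any of 7 libraries (EKO replicates 1 and 3 at 22 weeks and 2 and 3 at 6 weeks, WT replicates 1 and 3 at 22 weeks and 3 at 6 weeks, adjusted p up to 0.0822), the Soat1 call without any of those or WT replicate 2 at either time (up to 0.104), with the compared groups alone (0.0531) and with a pseudocount of 0.1 (0.0514), and the Npc1 call without EKO replicate 3 at 22 weeks (0.0509).

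The change with apoA-I at 22 weeks differed by diet in both directions, in 3 genes lower and 1 higher (18.6% of all genes lower, 15.6% higher, 34.2% called). Soat1, Nceh1 and Npc1 fell further on WD than on chow, by -2.23, -1.98 and -1.04, whereas Plin2 was at 1.47 ± 0.52, since it was lower with apoA-I on chow and not called on WD. With the fat and muscle terms all 4 calls ended. Soat1 was then at -1.38 (adjusted p = 0.288), Nceh1 at -1.15 (0.524) and Npc1 at -0.79 (0.317), and Plin2 turned to -0.27. Brown adipocyte and skeletal muscle sums of EKO/hA-I did not overlap between the diets at 22 weeks. The terms thus cannot be told apart well from diet there, and a lost call does not show that the difference is absent. The Plin2 call was also lost without any of 6 libraries (EKO/hA-I WD replicates 1 and 2, EKO/hA-I chow 3, EKO WD 1, EKO chow 1 and 3, adjusted p up to 0.0869). Lpl, at 1.58, was not called (adjusted p = 0.0911, limma), though its unadjusted p was under 0.05. With the compared groups alone (0.0341) and without EKO/hA-I chow replicate 2 (0.0285) Lpl passed. Lipa (-0.59), Npc2 (0.28) and Fabp5 (-0.54) gave no call either: these 3 genes were lower with apoA-I on both diets.

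Chow for 22 weeks showed that second pattern directly. In EKO/hA-I against EKO, 5 genes were lower and 0 higher, where 14.9% of all genes were lower and 28.6% were called. Plin2 was 254.8, 270.9 and 216.2 in the EKO/hA-I libraries, against 756.0, 386.0 and 835.9 in the EKO libraries, and fell by 1.34 ± 0.36 (SE; adjusted p = 0.00894, limma). Fabp5 was 59.5, 61.5 and 49.8 in the EKO/hA-I libraries, against 177.6, 187.2 and 185.4 in the EKO libraries, and fell by 1.68 ± 0.34 (adjusted p = 0.00150). Lpl was 634.0, 1886 and 659.5 in the EKO/hA-I libraries, against 2231, 2279 and 3256 in the EKO libraries, and fell by 1.46 ± 0.51 (adjusted p = 0.0332). All 3 genes were lower in every EKO/hA-I library, although EKO/hA-I replicate 2 came near the EKO group for Lpl. Npc2 fell by 0.93 ± 0.20 and Lipa by 0.96 ± 0.27, and Soat1 (-0.30), Nceh1 (-0.71) and Npc1 (-0.14) were not called. In a fit of the 6 libraries alone Nceh1 passed (adjusted p = 0.00949).

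Fat markers moved with these 5 genes. Brown adipocyte markers were lower for 6 of 8, with a sum of 1687.7 to 2122.9 in EKO/hA-I, against 4322.6 to 7862.1 in EKO. White adipocyte markers were lower for 6 of 6, with 815.7 to 2000.6 in EKO/hA-I, against 4016.3 to 6788.1 in EKO. Macrophage markers were lower for 7 of 12 (532.4 to 770.2 in EKO/hA-I, against 1345.0 to 2211.8 in EKO). None of the 5 calls held with terms for brown fat and skeletal muscle in the fit (adjusted p 0.0832 for Fabp5 and more for the other 4). The differences were then -1.21 for Fabp5 and -0.54 to -0.44 for the other 4. Brown adipocyte sums did not overlap between these groups, so the terms cannot be told apart well from genotype here. A lost call does not show that the difference is absent. Y-linked transcripts were near 0 in 0 of 3 EKO/hA-I and 2 of 3 EKO libraries, and with a Y-linked term the Lpl call was lost (adjusted p = 0.0696) while the other 4 held. Without the single library EKO chow replicate 3, the calls of Plin2 (adjusted p = 0.0551), Lipa (0.0724) and Lpl were lost, and the Lpl call was also lost without EKO chow replicate 1 or EKO/hA-I chow replicate 1 or 3.

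The reverse was seen for diet in EKO/hA-I at 22 weeks, where WD against chow gave 5 genes higher and 0 lower (20.7% of all genes higher, 38.2% called). Plin2 averaged 1031 ± 101 on WD and 247.3 ± 28.1 on chow (SD, n = 3 each) and rose by 2.06 ± 0.36 (SE; adjusted p = 0.000499, limma). Lpl and Fabp5 each rose by 1.46, Lipa by 1.1 and Npc2 by 0.95, while Soat1 (0.01, 95% interval -0.53 to 0.55), Npc1 (0.00, -0.30 to 0.30) and Nceh1 (0.46, -0.31 to 1.24) were not called. Brown adipocyte markers were higher for 7 of 8 (6229.3 to 7776.3 on WD, against 1687.7 to 2122.9 on chow), skeletal muscle markers for 8 of 8 and macrophage markers for 8 of 12. None of the 5 calls held with the brown fat and skeletal muscle terms. Under them Plin2 was at 0.86 (adjusted p = 0.648), Fabp5 at 0.61 (0.833) and Lpl at 0.14 (0.969). Both marker sums were apart between these groups, so the terms cannot be told apart well from diet here. The Lpl call was also lost without any of 4 libraries (EKO/hA-I WD replicates 1 and 2, EKO/hA-I chow 1 and 3, adjusted p up to 0.114).

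EKO against WT on chow at 22 weeks gave 4 genes higher and 0 lower, where 7.35% of all genes were higher and 15.3% were called. Fabp5 was 177.6, 187.2 and 185.4 in the EKO libraries, against 81.6, 134.9 and 48.4 in the WT libraries, and rose by 1.17 ± 0.34 (SE; adjusted p = 0.0220, limma). Soat1 was 27.7, 26.9 and 21.2 in the EKO libraries, against 17.0, 8.97 and 14.1 in the WT libraries, and rose by 0.90 ± 0.26 (adjusted p = 0.0210). Lipa rose by 0.79 ± 0.27 and Npc2 by 0.64 ± 0.20. Groups were apart for Fabp5 and Soat1 and narrowly for Npc2 (lowest EKO library 340.3, highest WT library 331.0), and overlapped for Lipa. Npc1, which was not called, was narrowly apart too (64.6 and 64.0). Each of the 4 calls was lost in a fit of the 6 libraries alone and without at least 3 single libraries. For Soat1 these were WT chow replicate 2 and EKO chow replicates 1 and 2. For the other 3 genes they were replicates 1 and 3 of WT chow and of EKO chow (adjusted p up to 0.218). Nceh1, at 0.81 ± 0.38, was not called (adjusted p = 0.148) but passed at 0.0199 without WT chow replicate 1, whose Nceh1 was 24.0, against 6.52 and 8.79 in the other WT libraries, and whose heart muscle markers summed to 5700.0. Macrophage markers were higher for 11 of 12 (1345.0 to 2211.8 in EKO, against 263.7 to 430.9 in WT) and white adipocyte markers for 3 of 6 (4016.3 to 6788.1 in EKO, against 1368.3 to 3084.9 in WT); their part was not tested. Npc1, at 0.37, passed with the fat and muscle terms (adjusted p = 0.0443) and with the Y-linked term (0.0453).

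In EKO on chow, 22 against 6 weeks gave 4 genes higher (Plin2, Lipa, Npc2 and Fabp5) and 0 lower, where 13.3% of all genes were higher and 27% were called. Plin2 rose by 1.26 ± 0.36, Fabp5 by 1.20 ± 0.34, Lipa by 0.93 ± 0.27 and Npc2 by 0.58 ± 0.20 (SE; adjusted p at most 0.0370, limma). Brown adipocyte markers were higher for 6 of 8 in the same comparison (4322.6 to 7862.1 at 22 weeks, against 1508.2 to 2132.4 at 6 weeks), macrophage markers for 6 of 12 and white adipocyte markers for 4 of 6, and smooth muscle markers were lower for 3 of 8. All 4 calls were lost with the brown fat and skeletal muscle terms, at 0.83 for Fabp5, 0.33 for Plin2 and Lipa and 0.15 for Npc2. Since the brown adipocyte sums did not overlap between the times, the terms cannot be told apart well from time here. All 4 were also lost without EKO chow 6 weeks replicate 3 (adjusted p up to 0.194). Plin2 (0.0724), Npc2 (0.0954) and Fabp5 (0.0619) were lost in a fit of the 6 libraries alone. Single calls also ended without EKO 22 weeks replicate 3 (Plin2, Lipa, Npc2), EKO 22 weeks replicate 1 (Plin2, Npc2) or EKO 6 weeks replicate 1 (Npc2). EKO/hA-I against WT on chow at 22 weeks gave 1 gene, Lpl, lower by 1.59 ± 0.51 (adjusted p = 0.0390), where 7.29% of all genes were lower and 13.8% were called. That call was lost in a fit of the 6 libraries alone (adjusted p = 0.219), with the fat and muscle terms (0.740) and without EKO/hA-I replicate 1 or 3 or WT replicate 2 (up to 0.230). Brown adipocyte sums were apart in this comparison too (1687.7 to 2122.9 in EKO/hA-I, against 3739.1 to 11705.0 in WT), with the same limit on the terms. Plin2 passed there without WT replicate 1 (adjusted p = 0.0363).

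The comparisons of genotypes at 6 weeks gave calls on WD and none on chow. On WD, EKO against WT gave 2 genes higher and 0 lower, where 3.94% of all genes were higher and 5.44% were called. Soat1 was 43.7, 22.9 and 24.2 in the EKO libraries, against 10.1, 12.3 and 12.8 in the WT libraries, and rose by 1.24 ± 0.26 (SE; adjusted p = 0.00806, limma). Nceh1 was 35.5, 15.2 and 17.0 in the EKO libraries, against 6.22, 6.81 and 10.5 in the WT libraries, and rose by 1.35 ± 0.38 (adjusted p = 0.0354). Groups did not overlap for either gene, and each call ended without some single library, Soat1 without WT replicate 1 or EKO replicate 1 and Nceh1 without WT replicate 1 or 2 or EKO replicate 1 or 3. Both were lost in a fit of the 6 libraries alone (adjusted p = 0.0945 and 0.135), and Nceh1 with the fat and muscle terms (0.172). Macrophage markers were higher for 6 of 12 (1056.0 to 1615.3 in EKO, against 345.8 to 677.6 in WT). EKO/hA-I against WT on WD gave Soat1 (0.85 ± 0.26), Nceh1 (1.22 ± 0.38) and Npc1 (0.45 ± 0.15) higher and 0 lower, against 8% of all genes higher and 16.9% called. These 3 calls too rested on single libraries, each being lost without EKO/hA-I replicate 1 or WT replicate 1, Soat1 and Nceh1 also without EKO/hA-I replicate 3, Nceh1 and Npc1 without WT replicate 2, and Npc1 without EKO/hA-I replicate 2. All 3 were lost in a fit of the 6 libraries alone (adjusted p 0.0771 to 0.105) and with the fat and muscle terms (0.0931 to 0.390). Brown adipocyte sums did not overlap there (2326.6 to 5596.5 in EKO/hA-I, against 7157.4 to 14726.0 in WT). The terms thus cannot be told apart well from genotype. Macrophage markers were higher for 9 of 12 (826.8 to 1474.7 in EKO/hA-I, against 345.8 to 677.6 in WT).

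EKO/hA-I against EKO gave 0 calls among the 8 at 6 weeks on either diet with limma, where 0.0706% of all genes were called on WD and 0.0777% on chow. At an unadjusted p under 0.05 there were 0 of the 8 on WD and 1 (Plin2) on chow. Soat1 differed by -0.39 on WD (95% interval -0.93 to 0.15) and Nceh1 by -0.13 (-0.90 to 0.65). The other comparisons at 6 weeks without a call were those of each apoE-deficient genotype (EKO, then EKO/hA-I) to WT on chow, where 4.97% and 0.12% of all genes were called and 0 of the 8 had an unadjusted p under 0.05. WD against chow gave 0 calls at 6 weeks in EKO (0.0848% of all genes; Plin2, Lipa and Fabp5 under 0.05 unadjusted) and 0 in EKO/hA-I (0.00706%; 0 of the 8 unadjusted).

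WT mice gave a call for the droplet coat and for the lipase, the genes that the apoE comparisons on WD did not call. Plin2 was 1008, 921.0 and 1288 on WD at 6 weeks, against 420.9, 420.3 and 304.6 on chow, and rose by 1.49 ± 0.36 (SE; adjusted p = 0.0372, limma), where 0.834% of all genes were higher and 1.43% were called. The call was lost when any 1 of the 6 libraries was left out, in a fit of those 6 alone (adjusted p = 0.0958) and with the fat and muscle terms, at 0.64 (0.242). Lpl was 1135, 735.6 and 1340 at 22 weeks of WD, against 8266, 1861 and 2499 at 6 weeks, and fell by 1.70 ± 0.51 (adjusted p = 0.0444), where 3.46% of all genes were lower and 6.68% were called. Without WT WD 6 weeks replicate 1 the adjusted p was past 0.05, as it was without replicate 3 at 6 weeks or replicate 1 or 2 at 22 weeks. The Lpl call was lost too in a fit of those 6 alone (0.132) and with the fat and muscle terms, at -0.56 (0.632). Brown adipocyte markers were higher for 1 of 8 on WD against chow at 6 weeks, and lower for 2 of 8 at 22 against 6 weeks of WD. Their sums did not overlap in either comparison. They were 7157.4 to 14726.0 on WD at 6 weeks, against 2282.6 to 6212.8 on chow at 6 weeks and 3040.5 to 5368.2 on WD at 22 weeks. The fat and muscle terms thus cannot be told apart well from diet or time here. WT WD 6 weeks replicate 1 held the highest Lpl of all 35 libraries and also the highest brown adipocyte sum, 14726.0. WD against chow in WT at 22 weeks gave 0 calls (1.36% of all genes), with Soat1 and Lpl under 0.05 unadjusted. The comparison of 22 against 6 weeks on chow gave 0 in WT (0.12% of all genes; 0 unadjusted) and 0 in EKO/hA-I (0.00706%; Plin2 alone unadjusted).

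Across all 35 libraries the 8 genes fell into overlapping patterns, given here as Pearson r of log2(value + 1) over libraries that fall into shared groups and differ in depth and in tissue markers. Soat1 and Nceh1 had an r of 0.94, Soat1 and Npc1 0.89, and Lipa and Fabp5 0.93. Leaving out the 3 libraries of EKO on WD for 22 weeks parted them more sharply. Over the remaining 32, Soat1 kept an r of 0.78 with Nceh1 and 0.57 with Npc1, but had 0.15 with Lipa and -0.10 with Npc2, while Lipa had 0.84 with Plin2, 0.83 with Fabp5 and 0.75 with Npc2. Outside that group, Lipa, Npc2, Plin2 and Fabp5 thus varied together, and Soat1 varied with Nceh1 and less closely with Npc1. The sets were not clean: Nceh1 had 0.45 with Npc1 and 0.43 with Fabp5. Lpl had 0.64 with Npc2, 0.57 with Lipa and with Plin2, and 0.42 with Fabp5.

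Tissue markers were compared with the genes in the same way. With the mean log2 level of the macrophage markers, r over 35 libraries was 0.88 for Soat1, 0.86 for Nceh1, 0.84 for Npc1 and Fabp5, 0.83 for Lipa, 0.72 for Npc2, 0.40 for Plin2 and 0.12 for Lpl. With the brown adipocyte markers it was 0.75 for Plin2 and 0.73 for Lpl, and -0.35 to 0.35 for the other 6. Over the 32 libraries the values with macrophage markers were 0.70 for Soat1, 0.64 for Nceh1, 0.60 for Fabp5, 0.59 for Lipa, 0.57 for Npc1, 0.42 for Npc2, 0.27 for Plin2 and 0.01 for Lpl. Those with brown adipocyte markers were 0.87 for Plin2, 0.81 for Lpl, 0.74 for Lipa, 0.69 for Npc2 and 0.58 for Fabp5, against -0.18 for Npc1, -0.19 for Nceh1 and -0.36 for Soat1. The brown adipocyte markers thus parted the genes broadly as their own r did, and the macrophage markers did not. Other lists parted them too over the 32 libraries. With smooth muscle markers r was -0.75 to -0.59 for Npc2, Plin2, Lpl, Lipa and Fabp5. It was -0.10 to 0.20 for Soat1, Nceh1 and Npc1. With white adipocyte markers the same sets of genes had 0.36 to 0.78 and -0.09 to 0.10. Which tissue the split follows was not tested.

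**Figure D3:**
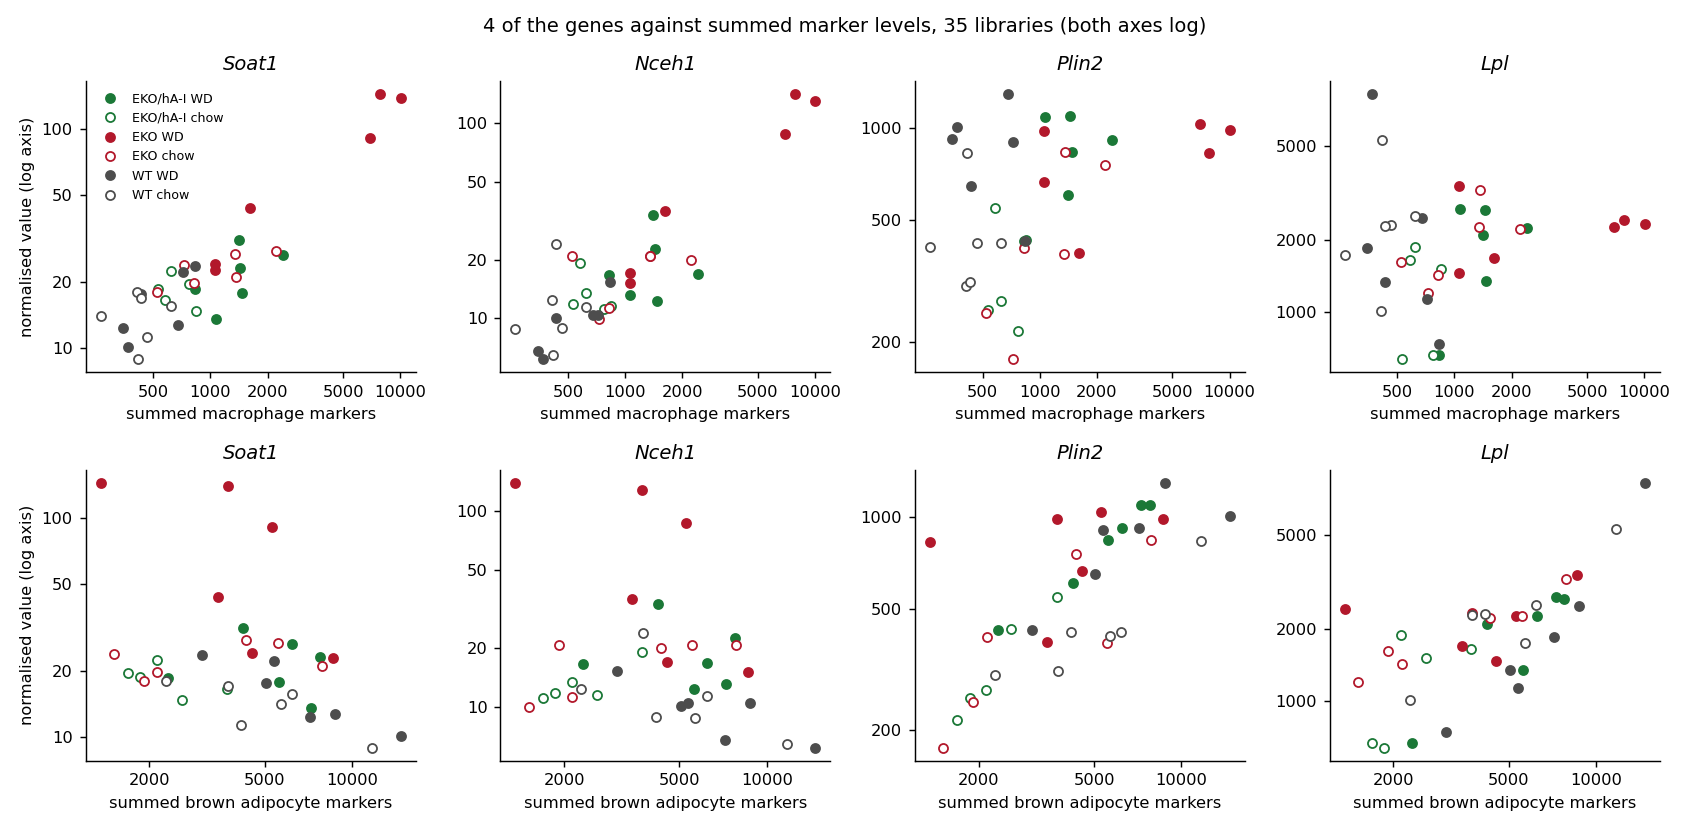
Normalised value of Soat1, Nceh1, Plin2 and Lpl (vertical, log axis) against the summed level of 12 macrophage markers (top) and 8 brown adipocyte markers (bottom; horizontal, log axis) in the 35 libraries, by genotype (colour) and diet (filled WD, open chow). Soat1 and Nceh1 run along the macrophage sum up to the 3 EKO libraries of WD at 22 weeks, at 6946.6 and above, whereas Plin2 and Lpl run along the brown adipocyte sum.

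Among genes with a mean log2 value of at least 3, those most like Soat1 over the 35 libraries were Galns (r = 0.97), Ctsl (0.96) and Gla (0.96), and those most like Nceh1 were Slc7a7 (0.95), C77080 (0.94) and Lhfpl2 (0.94). Lipa was nearest to Ctsd (0.95), Mmp19 (0.95) and Galc (0.94). Fabp5 was nearest to Ctsd (0.95), Lipa (0.93) and Wdr91 (0.93). Npc1 was nearest to Gusb, Anxa4 and Igf2r (0.94 each) and Npc2 to Ostf1 (0.91), Tmem106a (0.91) and Galk2 (0.90). Plin2 was nearest to Afg3l1 (0.91), Pkm (0.91) and Abi3 (0.90), and Lpl to Mgst1 (0.91), Hacd2 (0.91) and Dram2 (0.90). Without EKO on WD for 22 weeks the same pairs of Plin2 and Lpl kept an r of 0.90 to 0.94 over 32 libraries, and those of Npc1 dropped to between 0.73 and 0.82.

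Around these 8 genes, 77 further genes of ester turnover, droplets, triglyceride, sterol transfer, lipase control, fatty acid uptake and their regulators were tested. Between EKO and WT after 22 weeks of WD, 17 of the 77 were higher and 5 lower, with a median of 0.09, where 14.8% of all genes were higher and 22% were called. Sterol transfer gave the largest change: Gramd1b, whose product carries cholesterol from the plasma membrane to the endoplasmic reticulum, rose by 2.38 ± 0.35 (SE; adjusted p = 8.70e-06, limma), averaging 37.0 ± 4.00 in EKO and 6.37 ± 1.48 in WT (SD, n = 3 each). Of the 16 genes of that group 4 rose, the others being the lysosomal membrane proteins Lamp2 (0.97) and Lamp1 (0.78) and the late endosomal sterol carrier Stard3 (0.64), and 3 fell: Osbpl6 (-0.93), Gramd1c (-0.72) and Anxa6 (-0.53). None of the 4 other ester enzymes measured was called, Soat2 averaging 4.30 ± 0.228 in EKO and 3.07 ± 0.386 in WT and Lipe 574.1 ± 211 in EKO and 656.0 ± 168 in WT.

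Of 14 droplet genes 1 rose in EKO, the droplet-bound dehydrogenase Hsd17b11 (0.79 ± 0.13), and of 14 triglyceride genes 2 did, Acsl4 (0.78) and the phosphatidate phosphatase Lpin2 (0.60). The other perilipins measured were not called: Plin1 differed by -0.18, Plin3 by 0.12, Plin4 by -0.11 and Plin5 by -0.68. Among 11 genes that mature, anchor or control LPL, the endothelial lipase Lipg (1.25), the endocytic receptor Lrp1 (1.19), the protease Furin (0.79) and Sel1l (0.38) rose, and Apoc1 (-1.66) and Vldlr (-1.03) fell. Lipg was a low gene, averaging 3.75 in EKO and 0.905 in WT. Apoc1 averaged 14.4 in EKO and 49.2 in WT. It was no higher in EKO on chow for 22 weeks (9.49) or on WD for 6 weeks (10.5). Slc27a3 (0.57) was the 1 of 8 fatty acid uptake genes called. Of 10 regulators 5 rose, among them Nr1h3 (0.82), which encodes the sterol sensor LXR alpha, Ppard (0.63), Hif1a (0.61) and Tfe3 (0.58), a factor for lysosomal genes.

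With apoA-I on WD at 22 weeks 11 of the 77 were higher and 12 lower in EKO/hA-I against EKO, with a median of 0.28, where 12.9% of all genes were lower and 18.8% were called. Lamp2 (-0.77), Lamp1 (-0.63), Stard3nl (-0.78) and Tmem97 (-0.49) fell among the sterol transfer genes, and Osbpl6 (0.74) rose. Gramd1b, at -0.14 ± 0.35, was not called and averaged 34.5 ± 11.3 in EKO/hA-I and 37.0 ± 4.00 in EKO (SD, n = 3 each). Hilpda (-0.85), an inhibitor of droplet lipolysis, and Hsd17b11 (-0.70) fell, as did the regulators Hif1a (-0.82), Mitf (-0.81) and Tfe3 (-0.31), the receptor Lrp1 (-1.13) and Sel1l (-0.42). Genes of droplet coat and growth rose: Plin5 (1.29), Cidea (1.24), Fitm2 (1.12) and Plin1 (1.01), with the lipolysis genes G0s2 (1.30), Pnpla2 (1.19) and Mgll (1.05), beside the higher brown adipocyte markers given above. Cidea is itself among the 8 brown adipocyte markers and Plin1 among the 6 white adipocyte markers, so the lists are not independent. Of LPL's partners, Gpihbp1, which anchors it to the capillary wall, rose by 1.52 ± 0.34 and averaged 80.4 ± 6.89 in EKO/hA-I and 28.6 ± 10.4 in EKO, while Lpl itself was not called. Apoc3 (1.91) and Vldlr (0.92) rose too. Apoc3 was a low gene, averaging 4.11 in EKO/hA-I and 0.354 in EKO.

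On WD against chow in EKO at 22 weeks 13 of the 77 were higher and 7 lower, with a median of -0.26, where 13.9% of all genes were higher and 18.7% were called. Hif1a (1.01), Mitf (0.99) and Tfe3 (0.28) rose among the regulators, Lamp2 (0.90), Stard3nl (0.61), Lamp1 (0.51) and Stard3 (0.44) among the sterol transfer genes, Hilpda (0.94) and Hsd17b11 (0.61) among the droplet genes, Acsl4 (0.91) and Lpin2 (0.67) among the triglyceride genes, and Lrp1 (1.02) and Sel1l (0.41) among LPL's partners. Dgat2 (-1.51), G0s2 (-1.20), Pnpla2 (-1.15), Fitm2 (-0.96), Osbpl6 (-0.80), Vldlr (-0.65) and Slc27a4 (-0.33) fell, beside the lower white adipocyte markers given above. On chow at 22 weeks, EKO/hA-I against EKO gave 1 of the 77 higher and 32 lower, with a median of -0.42 (14.9% of all genes lower, 28.6% called), and WD against chow in EKO/hA-I gave 39 higher and 3 lower, with a median of 0.62 (20.7% of all genes higher, 38.2% called), in the comparisons where the fat markers moved as given above.

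**Figure D4:**
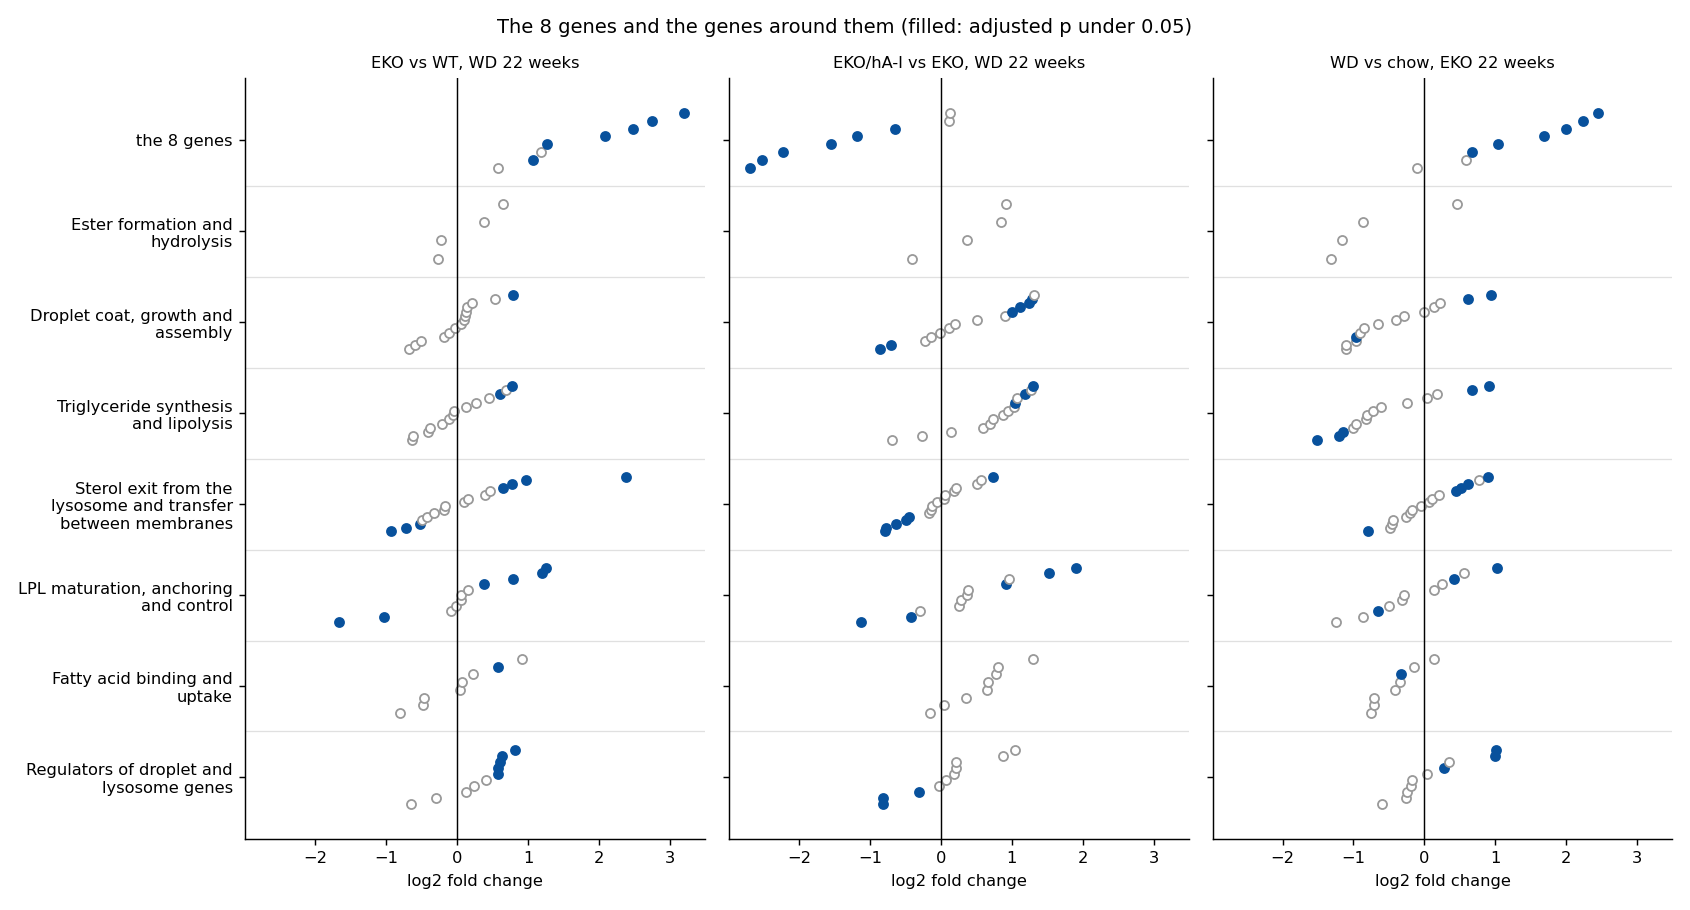
Fitted log2 fold change (horizontal) of the 8 genes and of 77 further genes in 7 groups (rows) for 3 comparisons that share the EKO WD 22 weeks libraries; a point is 1 gene and filled points had an adjusted p under 0.05. Nceh1 at 3.20 and Gramd1b at 2.38 lie far to the right in EKO against WT, and most genes of the other groups lie within 1 of 0.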

How the data were processed

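Total RNA libraries of mouse aorta were sequenced by the submitters, and 1 table of normalised signal per gene and library was deposited by the authors. Its normalisation is not given in the sources used here. The submitters' processing notes name Bowtie 0.12.2, Bowtie2, RSEM and the builds mm8 and mm9, without roles. Of the values of at most 1.5, 71.9 to 82.1% in a library lay within 0.02 reads of a whole read, so count tests were not used. The precision is limited by 2 or 3 libraries a group and by depth, inferred as 6850000 to 25330000 reads.

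Groups follow the titles. Genes had to reach 1 in 3 or more libraries (17 were removed, 14157 kept), and log2(value + 1) was fitted with limma 3.58.1 in R 4.3.3, in 1 model of 12 groups with trend and robust settings, for 24 comparisons and 4 interactions. Tests were two-sided, with Benjamini-Hochberg adjustment within a comparison and a threshold of 0.05; SE, intervals and fold changes come from that fit, and the code was tested on simulated data. The labels give replicates as separate samples without naming animals, so p-values measure the spread between these samples.

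The 8 genes, the pathway and marker lists and the tests were chosen with earlier results of these data known. Cidea, Plin1 and Cidec stand both in the pathway list and in the fat marker lists. All 8 genes were tested in every comparison, and those called were named. Genes not called were named in only some comparisons. Of the pathway list, genes that passed were named in 3 comparisons, up to 4 in each direction per group. The 3 genes nearest each of the 8 by r were named too. Soat2, Lipe, the perilipins and Gramd1b in EKO/hA-I against EKO were named beyond that rule, after their values were seen. Same-numbered replicates deviated together, with every pair's correlation over 0.1, in 2 of the 24 comparisons (22 against 6 weeks on WD, 0.12 to 0.44 in EKO and 0.13 to 0.34 in WT); no label states a pairing. Alternatives were the compared groups alone, a replicate block, pseudocounts of 0.1 and 5, no filter, rescaling, terms for brown fat and skeletal muscle markers or for Y-linked transcripts, each library left out, and, added after seeing the data, a fit without the 2 libraries where nerve markers were highest.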

Additional observations from a re-analysis of the deposited data

Results flagged for a closer look

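Of the 32 tests of a difference between differences on the 8 genes, 19 passed (limma, Benjamini-Hochberg over all genes tested). In the order given here, 5.12%, 6.21%, 34.2% and 8.64% of all genes were called in the 4 kinds of test. In the third kind, with 34.2% of all genes, 4 of the 8 were called. EKO/hA-I against EKO on WD differed between 22 and 6 weeks, on the log2 scale, for Soat1 (-2.13, adjusted p = 0.000838), Npc1 (-1.18, 0.000834), Nceh1 (-2.57, 0.00402) and Fabp5 (-1.73, 0.0338). EKO against WT at 22 weeks differed between WD and chow for Soat1 (1.57, adjusted p = 0.0102), Lipa (1.30, 0.0385), Npc1 (0.90, 0.00846), Nceh1 (2.38, 0.00703) and Fabp5 (1.58, 0.0491).

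EKO/hA-I against EKO at 22 weeks differed between WD and chow for Soat1 (-2.23, adjusted p = 0.000227), Npc1 (-1.04, 0.000729) and Nceh1 (-1.98, 0.00619), all negative, and for Plin2 (1.47, 0.0301), positive. EKO against WT on WD differed between 22 and 6 weeks for Soat1 (1.24, adjusted p = 0.0370), Lipa (1.93, 0.00187), Npc1 (0.80, 0.0137), Npc2 (1.18, 0.00967), Nceh1 (1.85, 0.0298) and Fabp5 (2.26, 0.00382). All 4 tests use the 3 EKO libraries of WD at 22 weeks, so the calls are not independent. Fabp5 in the test of apoE loss by diet, at 0.0491, lay closest to the threshold.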

How the results depend on the processing

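Of 69 calls of the 8 genes over the 24 comparisons and 4 interactions, 68 held with a replicate block (Fabp5 in EKO against WT by diet was lost, adjusted p = 0.0582), 67 with a pseudocount of 0.1, 69 with 5, 69 without the filter, 68 after rescaling and 65 with the Y-linked term. With the compared groups alone 48 held, and with the brown fat and skeletal muscle terms 43; under those terms Plin2 in EKO/hA-I against EKO by diet reversed, to -0.27. The same terms added 8 calls, among them Plin2 in EKO against WT and in both comparisons within EKO that include WD at 22 weeks. Where marker sums did not overlap between compared groups, the terms cannot be told apart well from genotype, diet or time. Over single libraries left out, 409 of 528 held. At 22 weeks of WD, Soat1, Nceh1, Lipa, Npc1 and Fabp5 held in EKO against WT and in EKO/hA-I against EKO under every alternative and left-out library. With the compared groups alone, EKO/hA-I against WT after 22 weeks of WD gave 1 call (0 in the fit of all groups), EKO against WT by diet 2 (5) and the 19 comparisons beyond those of WD at 22 weeks and time on WD in EKO 13 (26), against 7 with the fat and muscle terms. Left-out libraries gave 3 to 5 calls in EKO against WT by diet and 17 to 26 over those 19 comparisons, the lowest without EKO chow 22 weeks replicate 3. Without the 2 libraries of highest nerve markers 3 of 4 calls held in EKO on chow, 22 against 6 weeks (Npc2 lost). Groups of 2 or 3 libraries limit what could be detected. The cause of the changes was not tested.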

Other observations

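The balance of Nceh1 to Soat1, the log2 difference between the enzyme that splits stored ester and the enzyme that forms it, was looked at after the values had been seen. It carries the lengths of both transcripts, so that its zero has no meaning and only differences between libraries can be read. In WD at 22 weeks it lay between -0.63 and -0.04 in EKO/hA-I libraries, between -0.10 and -0.04 in EKO libraries, against -1.02 to -0.59 in WT. The EKO range lay above the WT range, as the larger fitted rise of Nceh1 (3.20) than of Soat1 (2.48) in that comparison gives.

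The 4 highest values of this difference over all 35 libraries were 0.47, 0.19, 0.19 and 0.10, in WT chow 22 weeks replicate 1, EKO/hA-I chow 6 weeks replicate 2, EKO chow 6 weeks replicate 1 and EKO/hA-I WD 6 weeks replicate 1. Those 4 were also the libraries with the highest and next highest sums of heart muscle markers (5700.0 in the WT and 3064.8 in the EKO/hA-I WD library) and of sympathetic neuron markers (1796.3 in the EKO/hA-I chow and 1477.6 in the EKO chow library). Nceh1 was the highest of its group in each of the 4, at 24.0, 19.2, 20.7 and 33.7. The 4 were picked by a difference that rises with Nceh1, so its high value there largely follows from the choice. Over all 35 libraries the r of Nceh1 was 0.42 with heart muscle markers and 0.07 with sympathetic neuron markers. Over the 32 libraries without EKO on WD for 22 weeks it was 0.37 and 0.36. The part of those tissues was not tested.

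Lpl varied most within groups. Its highest and lowest libraries were 2113 and 660.1 in EKO/hA-I on WD for 6 weeks, 1886 and 634.0 in EKO/hA-I on chow for 22 weeks, 8266 and 1861 in WT on WD for 6 weeks, and 5308 and 1744 in WT on chow for 22 weeks. In WT on WD for 6 weeks and WT on chow for 22 weeks the library with the highest Lpl also had the highest sum of brown adipocyte markers of its group (14726.0 and 11705.0). The same held in EKO/hA-I on chow for 22 weeks (2122.9). In EKO/hA-I on WD for 6 weeks it did not: replicate 1 had the highest Lpl and a sum of 4218.5, against 5596.5 in replicate 2.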
